A study of Bos taurus with 8 samples.

Results

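The inner cell mass cells of the day 8 bovine blastocyst were described here, as the cells that the authors' cell table places in the class MB ICM. That table lists 53 such cells, of which 51 have expression values, out of 286 cells with values in all. Of these 51 cells, 24 came from replicate 1, 21 from replicate 2, 5 from replicate 5 and 1 from replicate 3. The cells without values were 1 in replicate 2 and 1 in replicate 6.

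The inner cell mass is the group of cells that lies inside the blastocyst, enclosed by the trophectoderm, the outer layer that goes on to form the placenta. Its cells give rise to the epiblast, which forms the embryo proper, and to the hypoblast or primitive endoderm, which lines the yolk sac. NANOG and SOX2 are transcription factors of the epiblast. GATA6 and the growth factor receptor PDGFRA belong to the hypoblast. In the mouse embryo, early inner cells can carry genes of both fates before they separate, and fibroblast growth factor signalling through ERK favours the hypoblast.

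The study profiled single cells of wildtype Bos taurus embryos at days 6, 7, 8 and 9 after fertilization, in 6 libraries that each mixed individually barcoded cells. The labels also describe 2 libraries of day 6 morulae injected at the zygote stage with mRNA of the base editor BE3, with or without SOX2 sgRNAs, and neither was used here. The groups compared with MB ICM were MB TE, the trophectoderm class of day 8, and LB EPI and LB PE, the epiblast and primitive endoderm classes of day 9, all of them wildtype. How the authors assigned the classes is not stated in the labels or the files, and the classes may rest on the same expression values, so a difference between classes is not independent evidence for either class.

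Each library was a pool of ages and classes, and the same 48 cell barcodes recur in all 6 libraries. The labels tie no cell to an embryo, so the number of embryos behind the 51 cells is unknown and every p-value measures how libraries vary, for which technical causes are possible. MB ICM cells had between 2633 and 364384 reads, with a median of 132481, and a median of 7322 genes with at least 1 read. Median depth was 198116 reads in MB TE, 196981 in LB EPI and 39210 in LB PE. Of the MB ICM cells, 4 had under 20000 reads. Their summed level of 9 trophectoderm markers had a median of 5566 CPM (a gene's reads scaled to a common total per cell) against 1588 CPM in the other 47 cells, and their summed level of 10 hypoblast markers was 1971 against 4354 CPM. The part of depth in these values was not tested.

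The class was compared with other classes over library averages. The CPM of all cells of 1 class in 1 library were averaged where at least 3 cells were present, and log2(average + 10 CPM) was tested with limma, adjusted by the Benjamini-Hochberg method over 12539 genes. A log2 difference on this scale understates the change of genes with low levels. MB ICM had averages from replicates 1, 2 and 5, MB TE from replicates 1, 2 and 3, LB EPI from replicates 2, 3 and 5, and LB PE from replicates 3 and 5. Values below are given in that order of replicates.

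Between MB ICM and MB TE, 1264 genes (10.1% of those tested) passed an adjusted p of 0.05, of which 515 (4.11%) were higher and 749 (5.97%) were lower in MB ICM. Replicates 1 and 2 hold both classes, and among the 515 genes 514 and 513 had the higher average in MB ICM within them. The fit used these averages, so the counts are a description and no separate support. Of the hypoblast list, 12 of the 26 tested members were higher and 1 was lower, with a median log2 difference of 1.05 beside 0.04 over all tested genes. Of the epiblast list, 8 of 27 were higher and 2 lower, with a median of 0.47. The trophectoderm list went the other way, with 21 of 28 members lower, 1 higher and a median of -2.13. Members of both inner lists were therefore higher in the inner class than in its outer neighbour of the same age. The epiblast list is not of 1 lineage on day 9. Of its 27 tested members, 7 were lower and 3 higher in LB PE than in LB EPI. Of the 26 of the hypoblast list, 16 were higher in LB PE and 0 lower.

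NANOG, a homeobox factor of the pluripotent state, averaged 129, 130 and 203 CPM in the MB ICM libraries and 11.8, 19.6 and 13.5 CPM in the MB TE libraries. No MB TE average reached the MB ICM range, and the log2 difference was 2.61 (standard error, SE, 0.34, adjusted p = 2.39e-05). SOX2, the partner of POU5F1 on many pluripotency genes, averaged 167, 72.4 and 84.5 CPM against 16.2, 5.69 and 3.11 CPM. It too was separate between the classes, with a log2 difference of 2.80 (SE 0.47, adjusted p = 0.000591), and replicate 1 was the highest of its 3 libraries. DPPA4, a chromatin-associated protein of early embryos, was higher by 1.39 (SE 0.29, adjusted p = 0.00265). OTX2, a homeobox factor, averaged 249, 194 and 177 CPM against 39.9, 14.2 and 11.1 CPM, a log2 difference of 2.88 (SE 0.37, adjusted p = 2.60e-05). Neither DPPA4 nor OTX2 passed between LB PE and LB EPI (log2 differences of -0.40 and 1.34, adjusted p = 0.552 and 0.0632).

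Other epiblast genes separated the day 8 classes less well. POU5F1, the octamer-binding pluripotency factor, averaged 174, 224 and 327 CPM in MB ICM and 140, 106 and 96 CPM in MB TE. Its log2 difference of 0.98 passed the test but did not without replicate 2 (adjusted p = 0.187), replicate 3 (0.128) or replicate 5 (0.111), nor without the cells under 20000 reads (0.211). KLF17, a Krüppel-like factor, averaged 17.5, 11.1 and 18.5 CPM and lost its call without replicate 1 (adjusted p = 0.0738), replicate 2 (0.0710), replicate 3 (0.0715) or replicate 5 (0.0674). For TDGF1, the Nodal co-receptor also called CRIPTO, the MB ICM averages of 4.01, 54.3 and 41.7 CPM overlapped those of MB TE at 0.68, 22.0 and 37.6 CPM. TDGF1 and GDF3, a ligand of the same pathway, did not pass the test (adjusted p = 0.664 and 0.0712). FGF4, the ligand that the epiblast sends to the hypoblast, had no read in any of the 51 MB ICM cells.

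Among hypoblast genes, PDGFRA averaged 123, 69.5 and 69.7 CPM in MB ICM and 7.83, 1.89 and 1.07 CPM in MB TE. The log2 difference was 2.85 (SE 0.32, adjusted p = 5.23e-06), with no overlap between the libraries of the classes. FN1, which encodes the matrix protein fibronectin, averaged 3318, 3480 and 3516 CPM in MB ICM against 560, 322 and 327 CPM, a log2 difference of 3.09 (SE 0.25, adjusted p = 1.34e-07). HNF4A, a nuclear receptor of endoderm, differed by 2.90 (SE 0.29, adjusted p = 2.04e-06). HNF4A averaged 109, 206 and 134 CPM in MB ICM, 144, 252 and 179 CPM in LB EPI and 184 and 174 CPM in LB PE, and the ranges of the day 9 classes overlapped. RSPO3, a secreted enhancer of WNT signalling, averaged 23.4, 84.3 and 45.3 CPM against 5.79, 7.28 and 2.04 CPM (log2 difference 1.90, SE 0.33, adjusted p = 0.000646). FLRT3, a membrane protein with leucine-rich repeats, had the largest rise of the named genes at 3.51 (SE 0.36, adjusted p = 2.04e-06).

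GATA6 did not behave like these genes. It averaged 311, 274 and 145 CPM in MB ICM and 329, 151 and 277 CPM in MB TE, and the ranges overlapped. The log2 difference was 0.01 (adjusted p = 1). GATA6 was thus a gene of both day 8 classes and does not by itself mark inner cells here. Its partner GATA4 was close to the floor, at 3.10, 4.67 and 4.41 CPM in MB ICM, with at least 1 read in 3 of 24, 5 of 21 and 1 of 5 cells of replicates 1, 2 and 5. SOX17, a later endoderm factor, had reads in 0 of 24, 3 of 21 and 0 of 5 cells, and FOXA2 in 1 of the 24 cells of replicate 1 and in none of replicate 2. At this depth the later endoderm factors were thus detected in few cells.

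**Figure D1:**
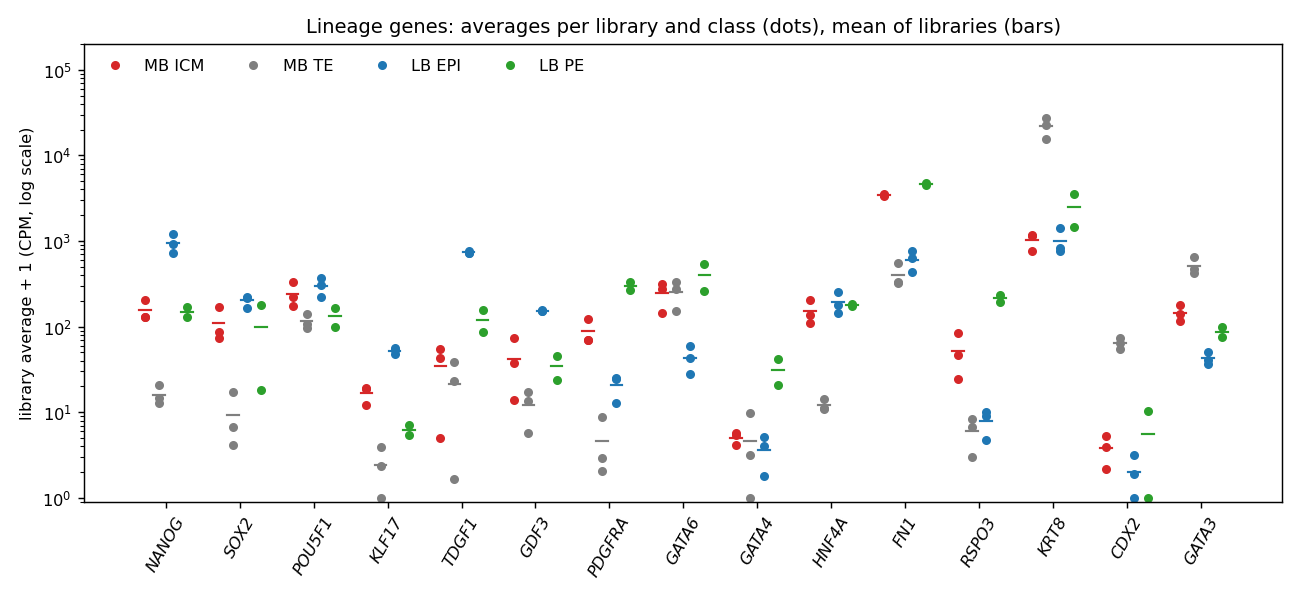
Library averages of 15 lineage genes in MB ICM, MB TE, LB EPI and LB PE, with each dot 1 library average plus 1 CPM on a log axis and each bar the mean of a class. NANOG and PDGFRA averages of MB ICM lie above every MB TE average, whereas GATA6 overlaps between the day 8 classes.

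The trophectoderm genes set the other side of the comparison. KRT8, a keratin of the outer epithelium, averaged 1180, 1138 and 771 CPM in MB ICM against 15477, 22754 and 27017 CPM in MB TE, and its log2 difference was -4.24 (SE 0.26, adjusted p = 7.60e-09). CDX2, a trophectoderm homeobox factor, averaged 4.31, 2.90 and 1.15 CPM against 72.9, 54.4 and 62.9 CPM, and 6 of 24 and 6 of 21 cells of replicates 1 and 2 had a read of it. GATA3 was lower by 1.74 on the log2 scale, yet it stayed at 179, 116 and 138 CPM and had reads in 23 of 24 and 20 of 21 cells. The summed level of 9 trophectoderm markers over MB ICM cells ran from 929 to 9366 CPM with a median of 1614 CPM, against a median of 36738 CPM in MB TE. The lowest MB TE cell held 10193 CPM, above the highest MB ICM cell. Markers of cumulus and granulosa cells had a median sum of 0 CPM in MB ICM, with 3 of 7 at 0 in every cell, and the sums of blood and sperm markers also had a median of 0 CPM. Of the cumulus, blood, fibroblast and oocyte lists, no tested member passed between MB ICM and MB TE, and no sperm gene reached the level for testing.

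Among signalling genes, FGFR4, a receptor for fibroblast growth factors, averaged 89.8, 99.7 and 75.6 CPM in MB ICM and 14.7, 16.4 and 5.86 CPM in MB TE, with a log2 difference of 2.18 (SE 0.31, adjusted p = 7.77e-05). The related receptors FGFR1 and FGFR2 were low in MB ICM, FGFR1 at 5.01, 3.43 and 2.69 CPM and FGFR2 at 9.23, 8.51 and 7.87 CPM. KLB, the co-receptor that FGFR4 uses for hormone-like FGFs, and the feedback inhibitor SPRY2 were higher by 1.36 and 1.56, and both lost the call without replicate 2 (adjusted p = 0.126 and 0.0824). Over the FGF and ERK list, 3 of 33 tested genes were higher and 1 lower, and the median of 0.02 lay beside the 0.04 of all tested genes. Across that list the class did not stand away from MB TE.

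IL6R, the interleukin 6 receptor, averaged 128, 49.3 and 67.9 CPM against 16.8, 18.3 and 4.07 CPM in MB TE, a log2 difference of 1.96 (SE 0.35, adjusted p = 0.000796). STAT3, the transcription factor that such receptors activate, averaged 52.6, 25.9 and 37.7 CPM against 8.61, 2.34 and 0.00 CPM, a difference of 1.86 (SE 0.34, adjusted p = 0.000859). IL6ST, the shared signalling subunit, was higher by 2.04 but not without replicate 2 (adjusted p = 0.0646). These were the 3 of 11 tested members of the IL6, LIF and STAT3 list that passed, none was lower, and the list's median was 0.15. PDGFA, the ligand of PDGFRA, was the reverse of its receptor, at 9.46, 1.91 and 4.38 CPM in MB ICM against 63.8, 33.0 and 108 CPM in MB TE (log2 difference -2.24, SE 0.40, adjusted p = 0.000709). The ligand was therefore higher in the outer class and the receptor in the inner one, and these were the PDGF list's 1 higher and 1 lower of 3 tested members.

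Of the basement membrane list, 7 of 23 tested genes were higher and 2 lower, with a median of 0.16. COL18A1 was higher by 1.94 (SE 0.40, adjusted p = 0.00281). The type IV collagen chains COL4A1 and COL4A2 were higher by 2.46 and 1.64, but not without replicate 2 (adjusted p = 0.0646 and 0.0713). Of the cell cycle list 5 of 30 were higher and none lower, led by TOP2A, a topoisomerase of dividing cells (log2 difference 1.39, SE 0.30, adjusted p = 0.00385). The Nodal list had 2 of 14 higher and 2 lower, the BMP and WNT list 3 of 26 higher and none lower, and the p53 and stress list 2 of 20 higher and 2 lower. Within the Nodal list the inhibitory SMAD7 was lower by 1.99 (SE 0.33, adjusted p = 0.000372), and NODAL itself averaged 0.00, 0.00 and 0.77 CPM.

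Within the class, the question was whether epiblast and hypoblast genes occurred in the same cells. In replicate 1, NANOG ran from 0 to 660 CPM over the 24 cells with a median of 96 CPM, and in replicate 2 from 0 to 740 CPM over 21 cells with a median of 53.8 CPM. The cell at 660 CPM had 7581 reads, and in replicate 1 cells of at least 20000 reads the maximum was 313 CPM. PDGFRA ran from 0 to 349 CPM (median 104) in replicate 1 and from 0 to 244 CPM (median 48.2) in replicate 2. All 5 cells of replicate 5 had NANOG, between 74.6 and 380 CPM, the latter in a cell of 2633 reads. At least 1 read of both genes was found in 17 of 24 cells of replicate 1 (70.8%, exact Clopper-Pearson 95% interval 48.9 to 87.4%), 18 of 21 of replicate 2 (85.7%, 63.7 to 97.0%) and 4 of 5 of replicate 5. A single read is a weak criterion, because the same was true of 11 of 21 MB TE cells of replicate 1 (52.4%) and 5 of 12 of replicate 2 (41.7%), whose depth was greater. With every cell thinned to 20000 reads and shallower cells left out, both genes were found in 13 of 22 and 8 of 20 MB ICM cells, against 1 of 21 and 0 of 12 MB TE cells of replicates 1 and 2. Intervals cover counting error only.

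A threshold of 50 CPM removed that background. None of the 37 MB TE cells had both NANOG and PDGFRA at or above it, and PDGFRA stayed at or under 16.4 CPM in the MB TE cells of replicates 1 and 2. In MB ICM, 9 of 24 cells of replicate 1 passed for both (37.5%, 18.8 to 59.4%), 4 for NANOG only, 8 for PDGFRA only and 3 for neither. In replicate 2, 5 of 21 passed for both (23.8%, 8.22 to 47.2%), 6 for NANOG only, 5 for PDGFRA only and 5 for neither. The product of the shares of each gene alone was 38.4% in replicate 1 and 24.9% in replicate 2. At 50 CPM the observed shares thus lay close to the product that genes distributed without regard to each other would give. In cells of at least 20000 reads the counts at 50 CPM were 9 of 22 and 5 of 20, with products of 39.7% and 25%. At 100 CPM the shares were 20.8% in replicate 1 and 4.76% in replicate 2. No products are given for 100 CPM, so closeness to them is stated for 50 CPM only.

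The rank correlation of NANOG with PDGFRA across cells was 0.107 in replicate 1 (24 cells) and -0.072 in replicate 2 (21 cells), a description of cells that share a library and differ in depth. At 50 CPM other pairs lay above or below their products, depending on the library. NANOG and GATA6 passed together in 13 of 24 and 9 of 21 cells (54.2% and 42.9%, with products of 49.7% and 47.4%). SOX2 and GATA6 did so in 18 of 24 and 9 of 21 cells (75% and 42.9%, with products of 76.4% and 43.1%). SOX2 and PDGFRA passed together in 15 of 24 cells of replicate 1 (62.5%, product 59.0%) and in 3 of 21 of replicate 2 (14.3%, product 22.7%). That last value was the furthest below its product, its rank correlation was -0.311, and in replicate 1 the same correlation was 0.149, so the libraries differed in sign.

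Nor did the genes of 1 fate go together closely. NANOG and SOX2 passed together in 12 of 24 and 7 of 21 cells (50% and 33.3%, with products of 45.1% and 24.9%), and their rank correlation was -0.271 in replicate 1 and 0.380 in replicate 2. PDGFRA correlated with GATA6 at -0.069 and 0.391, and with FN1 at 0.045 and 0.467. In replicate 2, then, both pairs of hypoblast genes and the epiblast pair had positive values, and in replicate 1 none of the 3 exceeded 0.045. The steadier partners of NANOG were GDF3 (0.494 and 0.312) and KLF17 (0.383 and 0.450). NANOG and HNF4A correlated at 0.476 and 0.152.

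**Figure D2:**
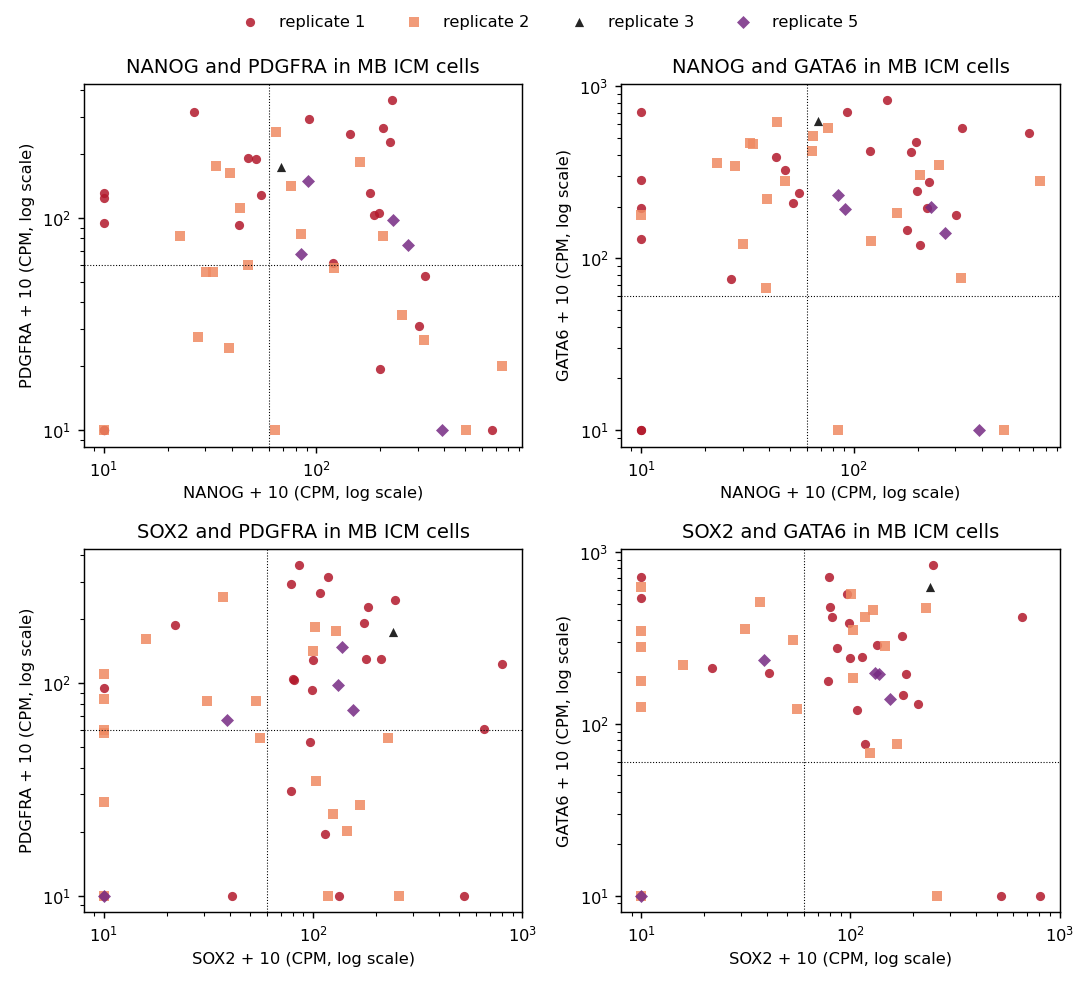
Levels of NANOG or SOX2 (x axes) against PDGFRA or GATA6 (y axes) in each MB ICM cell, as CPM plus 10 on log axes, colored by replicate, with dotted lines at the 50 CPM threshold. The upper right field of the NANOG and PDGFRA panel holds 9 cells of replicate 1 and 5 of replicate 2, besides cells of replicates 3 and 5.

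Taking the epiblast side as NANOG or SOX2 at 50 CPM or more, 26 of the 51 MB ICM cells had it together with PDGFRA (51.0%, 36.6 to 65.2%), 15 had it without PDGFRA, 6 had PDGFRA alone and 4 had neither. The share was 15 of 24 in replicate 1 (62.5%), 6 of 21 in replicate 2 (28.6%) and 4 of 5 in replicate 5 (80.0%), and the products in replicates 1 and 2 were 62.0% and 31.7%. The same combination was in 0 of 37 MB TE cells (upper exact limit 9.49%) and 5 of 45 LB EPI cells (11.1%, 3.71 to 24.1%). In LB PE it was in 17 of 25 cells (68.0%, 46.5 to 85.1%), of which 12 of 14 were in replicate 3 and 5 of 9 in replicate 5. Co-detection was thus rare in the day 9 epiblast class and not in the day 9 primitive endoderm class, whose cells were the shallowest. SOX2, on the epiblast side here, did not pass between these 2 classes (LB PE minus LB EPI -1.55 on the log2 scale, adjusted p = 0.0949). Its difference was -0.26 within replicate 3 and -2.70 within replicate 5. The combination in LB PE is therefore not read as genes of 2 fates in 1 cell.

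All 51 cells had at least 1 of NANOG, SOX2, PDGFRA and GATA6 at 50 CPM. The number per cell was 1 in 6 cells, 2 in 14, 3 in 16 and 4 in 15. All 4 were reached in 9 of 24 cells of replicate 1 and in 2 of 21 of replicate 2, and the libraries therefore differed in how many markers a cell carried at similar median depth, 141160 and 132481 reads. In MB TE, 33 of 37 cells had 1 of the 4. All 4 were reached in 0 of 37 MB TE cells, 3 of 45 LB EPI cells and 7 of 25 LB PE cells. Cells with all 4 were thus not particular to MB ICM. None of the 4 was reached in 1 MB TE, 0 LB EPI and 1 LB PE cells, so having at least 1 was common to these classes. The single MB ICM cell of replicate 3 had all 4, with NANOG at 57.9, SOX2 at 231, PDGFRA at 164 and GATA6 at 617 CPM.

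**Figure D3:**
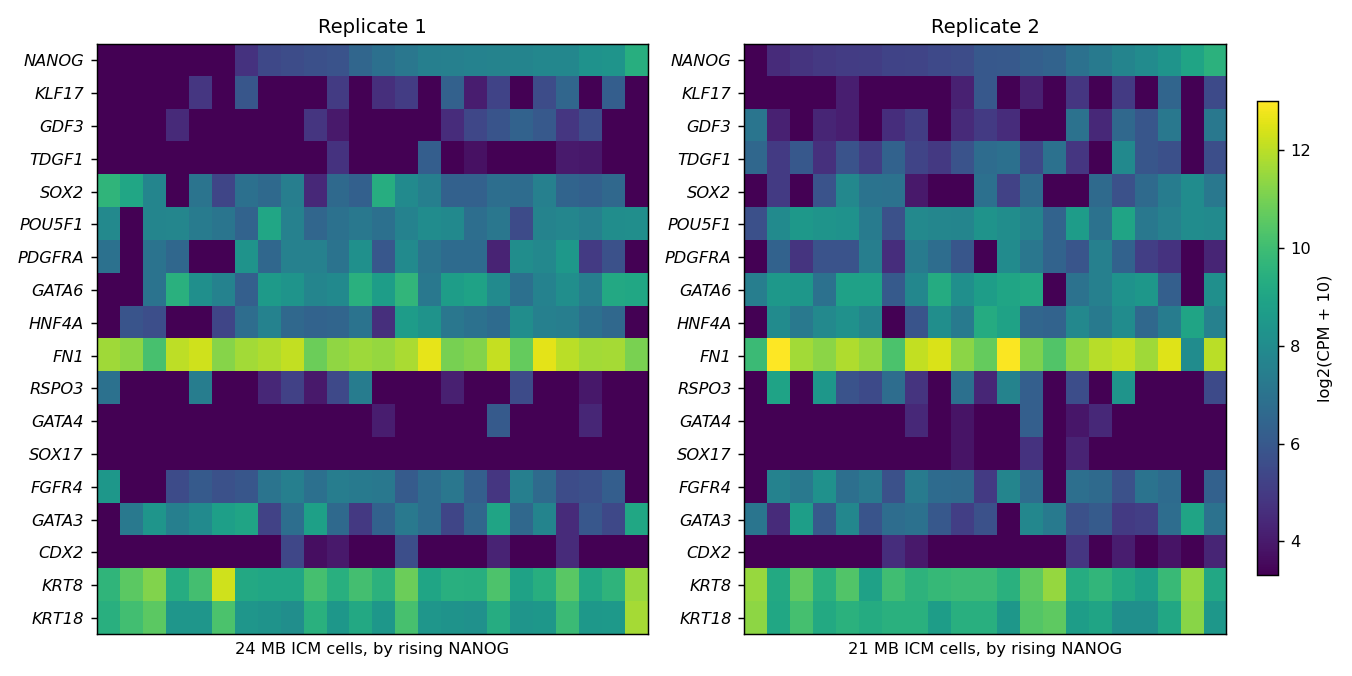
Levels of 18 lineage and signalling genes, as log2(CPM + 10), in the MB ICM cells of replicates 1 and 2, with each column 1 cell and the cells of each library ordered by rising NANOG. FN1 has reads in every cell of both libraries. The cells highest in NANOG in replicate 2 (740, 497, 311 and 241 CPM) have PDGFRA at 10.1, 0, 16.6 and 24.8 CPM. Those in replicate 1 (660, 313, 293 and 216 CPM) have it at 0, 43.1, 21 and 349 CPM. GATA6 is at 272, 0, 66.4 and 341 CPM in the former and 528, 561, 168 and 266 CPM in the latter. The cells with NANOG at 497 and 660 CPM had 4026 and 7581 reads.

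Other members differed between cells as widely. OTX2 ran from 0 to 658 CPM (median 261) in replicate 1 and from 14.3 to 566 CPM (median 134) in replicate 2. DPPA3, a maternal factor also called STELLA, had medians of 176 and 215 CPM, with maxima of 390 and 745 CPM. HNF4A was found in 20 of 24 and 19 of 21 cells, with medians of 90.3 and 181 CPM. RSPO3 was found in 10 of 24 and 13 of 21 cells, so even a hypoblast gene that distinguished the class from MB TE was not detected in many of its cells at this depth. LEFTY2, an inhibitor of Nodal signalling, was found in 9 of 24 and 7 of 21 cells, and its highest cell reached 340 CPM in replicate 1 and 36.1 CPM in replicate 2. The former cell had 8812 reads, and the highest replicate 1 cell of at least 20000 reads reached 66.3 CPM.

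The day 9 classes show which genes of the inner cell mass continue in each lineage. The comparisons of LB EPI and of LB PE with MB ICM share the MB ICM averages, so they are given side by side and not set against each other. Between LB EPI and MB ICM, 640 genes passed (5.1% of those tested), 413 higher in LB EPI (3.29%) and 227 lower (1.81%). Replicates 2 and 5 hold both classes, and within them the averages, which the fit also used, had the same direction for 412 and 413 of the 413 higher genes and for each of the 227 lower ones. Between LB PE and MB ICM, 88 genes passed (0.702%), 74 higher in LB PE (0.59%) and 14 lower (0.112%). LB PE rests on 2 averages of shallower cells. Without replicate 5, the library that holds both classes, 2 genes were called, and without replicate 3 the count was 269.

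NANOG went on to 718, 915 and 1211 CPM in LB EPI, from 129, 130 and 203 CPM in MB ICM, a log2 difference of 2.55 (SE 0.34, adjusted p = 0.000144). In LB PE it averaged 168 and 128 CPM, inside the MB ICM range (log2 difference -0.06, adjusted p = 0.984). TDGF1 rose most of the named genes, to 727, 759 and 729 CPM in LB EPI, with a log2 difference of 4.23 (SE 0.49, adjusted p = 6.66e-05). LRRC3, a leucine-rich repeat membrane protein, was at 1.52, 2.40 and 5.53 CPM in MB ICM and at 180, 404 and 203 CPM in LB EPI (log2 difference 4.21, SE 0.34, adjusted p = 5.27e-07). ERAS, a RAS-family protein of embryonic stem cells, was higher by 3.43 (SE 0.39, adjusted p = 2.57e-05).

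For SOX2 and POU5F1 no difference between MB ICM and LB EPI was detected. SOX2 averaged 222, 217 and 165 CPM in LB EPI, of which the lowest lay below the highest MB ICM average of 167 CPM (log2 difference 0.94, SE 0.47, adjusted p = 0.324). For POU5F1 the log2 difference was 0.32 (adjusted p = 0.682). KLF17 was higher in LB EPI by 1.29 and GDF3 by 1.78, and neither call survived without replicate 2 (adjusted p = 0.178 and 0.0679), nor KLF17's without replicate 3 (0.0587) or replicate 5 (0.0515). DPPA3 moved the other way, to 43.4, 12.1 and 44.4 CPM from 159, 234 and 183 CPM (log2 difference -2.20, SE 0.35, adjusted p = 0.000717). Of the epiblast list, 6 of 27 tested genes were higher in LB EPI and 1 lower, with a median of 0.53 beside 0.02 over all genes. NANOG, TDGF1 and LRRC3 were thus well below their LB EPI level in the day 8 class, whereas the libraries of SOX2 and POU5F1 overlapped between the classes. The MB ICM averages behind these overlaps include shallow cells. A replicate 1 cell of 8812 reads had SOX2 at 794 CPM, and a replicate 5 cell of 2633 reads had POU5F1 at 1139 CPM. Within libraries, the POU5F1 log2 difference was 0.70 in replicate 2 and -0.55 in replicate 5.

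Of the hypoblast list, 8 of 26 tested genes were lower in LB EPI than in MB ICM and none higher, with a median of -0.29. GATA6 averaged 27.3, 42.0 and 57.9 CPM in LB EPI, each below the lowest MB ICM average of 145 CPM (log2 difference -2.23, SE 0.33, adjusted p = 0.000360). The log2 differences were -2.47 for FN1 (SE 0.25, adjusted p = 6.34e-06) and -2.53 for FLRT3 (SE 0.36, adjusted p = 0.000251). PDGFRA averaged 11.7, 24.3 and 23.7 CPM in LB EPI, lower by 1.65 (SE 0.32, adjusted p = 0.00338), but without replicate 2 its adjusted p was 0.0556. Without replicate 2 RSPO3 (0.0731) and COL4A1 (0.149) also lost their calls, and COL4A1 did so without replicate 5 as well (0.0859).

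Outside the lineage lists, MPZL2, a cell adhesion protein of epithelia, had 329, 252 and 321 CPM in MB ICM and 27.7, 18.4 and 25.7 CPM in LB EPI. Its log2 difference was -3.19 (SE 0.28, adjusted p = 1.32e-06). FOLR1, a folate receptor, went from 827, 835 and 768 CPM to 88.3, 74.4 and 130 CPM, a difference of -2.89 (SE 0.29, adjusted p = 6.13e-06). In MB TE the averages were 300, 186 and 326 CPM for MPZL2 and 1078, 918 and 797 CPM for FOLR1, so the libraries of both genes overlapped between the inner and outer cells of day 8. GATA3, too, was lower in LB EPI than in MB ICM, by 1.57 (SE 0.25, adjusted p = 0.000745), and S100A10, an S100 family protein listed with the trophectoderm, by 1.37 (SE 0.25, adjusted p = 0.00234). Of the trophectoderm list, 4 of 28 were lower in LB EPI and none higher.

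Members of the pathway lists were also compared between MB ICM and LB EPI. DUSP6, a phosphatase that ERK signalling induces, averaged 35.4, 43.0 and 25.6 CPM in MB ICM and 132, 78.1 and 153 CPM in LB EPI (log2 difference 1.61, SE 0.31, adjusted p = 0.00340), though not without replicate 5 (adjusted p = 0.0701). Of the FGF and ERK list 5 of 33 were higher and 2 lower, with a median of 0.22. Of the Nodal list 4 of 14 were higher and none lower, led by TDGF1, with a median of 0.61. The BMP and WNT list had 7 of 26 higher and 1 lower, with LGR4, a receptor for R-spondins, higher by 2.08 (SE 0.43, adjusted p = 0.00505). JAK1, the kinase bound to IL6-type receptors, was higher by 1.89 (SE 0.35, adjusted p = 0.00226). IL6R and STAT3 were lower by 1.56 and 1.32, and lost their calls without replicate 1 (adjusted p = 0.0797 and 0.0967), replicate 2 (0.0581 and 0.128) or replicate 5 (0.0909 and 0.107). Of the basement membrane list 4 of 23 were lower and none higher.

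The largest named rise toward LB PE was that of CLU. This gene, which encodes the extracellular chaperone clusterin, averaged 10.1, 33.6 and 9.36 CPM in MB ICM and 223 and 365 CPM in LB PE (log2 difference 3.47, SE 0.49, adjusted p = 0.00402). APOA2, an apolipoprotein, averaged 0.67, 1.80 and 0.00 CPM against 78.3 and 20.8 CPM (log2 difference 2.23, SE 0.32, adjusted p = 0.00402), and kept its call with each library left out in turn. PDGFRA was higher by 1.70 (SE 0.37, adjusted p = 0.0334), at 333 and 265 CPM. RSPO3 reached 232 and 193 CPM and KLB 132 and 117 CPM, each above every MB ICM average, with log2 differences of 2.03 and 2.27. GATA4 was higher by 1.48 (adjusted p = 0.0382), at 40.7 and 20.1 CPM.

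Without replicate 5, with replicate 3 left as the 1 LB PE average and assumed to vary like the other groups, the adjusted p was 0.0766 for CLU, 0.144 for KLB, 0.186 for RSPO3 and GATA4 and 0.269 for PDGFRA. PDGFRA also lost its call without replicate 2 (adjusted p = 0.103) or replicate 3 (0.0943), RSPO3 without replicate 1 (0.0887) or replicate 3 (0.0687), and GATA4 without each library in turn (0.0508 to 0.186). Of the hypoblast list, 8 of 26 were higher in LB PE and none lower, with a median of 0.92. FN1, GATA6 and HNF4A did not pass, with log2 differences of 0.49, 0.64 and 0.24. For FN1 the averages were 4472 and 4714 CPM in LB PE beside 3318 to 3516 CPM in MB ICM. Of the trophectoderm list 4 of 28 were higher in LB PE than in MB ICM, and of the fibroblast list none passed, with a median of 1.02.

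To read the 2 fates without choosing genes by hand, genes were taken from the day 9 classes alone. Between LB PE and LB EPI, 676 genes passed, and 374 of them were higher in LB PE (2.98%) and 302 in LB EPI (2.41%). With a change of at least 2-fold, 360 genes made the day 9 PE set and 287 the day 9 EPI set. Each gene's MB ICM average was then placed on a line on which 0 is its LB EPI level and 1 its LB PE level. The EPI genes lay at a median of 0.853 (quartiles 0.589 and 1.06), with 236 nearer to LB PE and 51 nearer to LB EPI, and 89 lay beyond the LB PE level. The PE genes lay at a median of 0.430 (quartiles 0.150 and 0.734), with 201 nearer to LB EPI and 159 nearer to LB PE. The same LB EPI and LB PE averages chose the genes and set the ends of the line, so the positions are a description.

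The tests of the same genes gave counts in both directions. Of the 287 EPI genes, 179 were higher in LB EPI than in MB ICM and none was lower, whereas 4 were lower and none higher in LB PE than in MB ICM. Of the 360 PE genes, 99 were lower in LB EPI than in MB ICM and 58 were higher in LB PE than in MB ICM. The sets were chosen with the LB EPI and LB PE averages that these comparisons use, which favours these directions, so nothing is read from them. Against MB TE, whose averages did not enter the choice, 57 of the EPI genes were higher and 6 lower in MB ICM, and 48 of the PE genes were higher and 79 lower.

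The same sets gave each cell an EPI score and a PE score, the mean over the genes of log2(CPM + 10). The PE score minus the EPI score had a median of 0.347 over the 51 MB ICM cells, from -0.333 to 0.832. It ran up to -0.385 in LB EPI (median -1.76), from -0.346 in LB PE (median 1.11) and from 0.545 to 1.09 in MB TE (median 0.887). All 51 MB ICM cells lay above the highest LB EPI cell. So did every cell of the earlier classes Morula (day 6, median 0.454) and EB (day 7, median 0.582). A position above LB EPI was thus not particular to MB ICM. The lower end of the LB PE range was 1 cell of replicate 3, which also had the highest EPI score of that class (5.89), and the next LB PE cell was at 0.262. Of the MB ICM cells 21 lay below that next cell and 30 at or above it, where all MB TE cells lay too. With cells thinned to 20000 reads, 1 of 47 MB ICM cells, from replicate 5, lay in the LB EPI range, and 42 lay below the second lowest LB PE cell, at 0.593. The spread of the score difference was an SD of 0.157 over the 24 cells of replicate 1 and 0.312 over the 21 of replicate 2, and the 5 cells of replicate 5 had the lowest median, 0.0919.

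**Figure D4:**
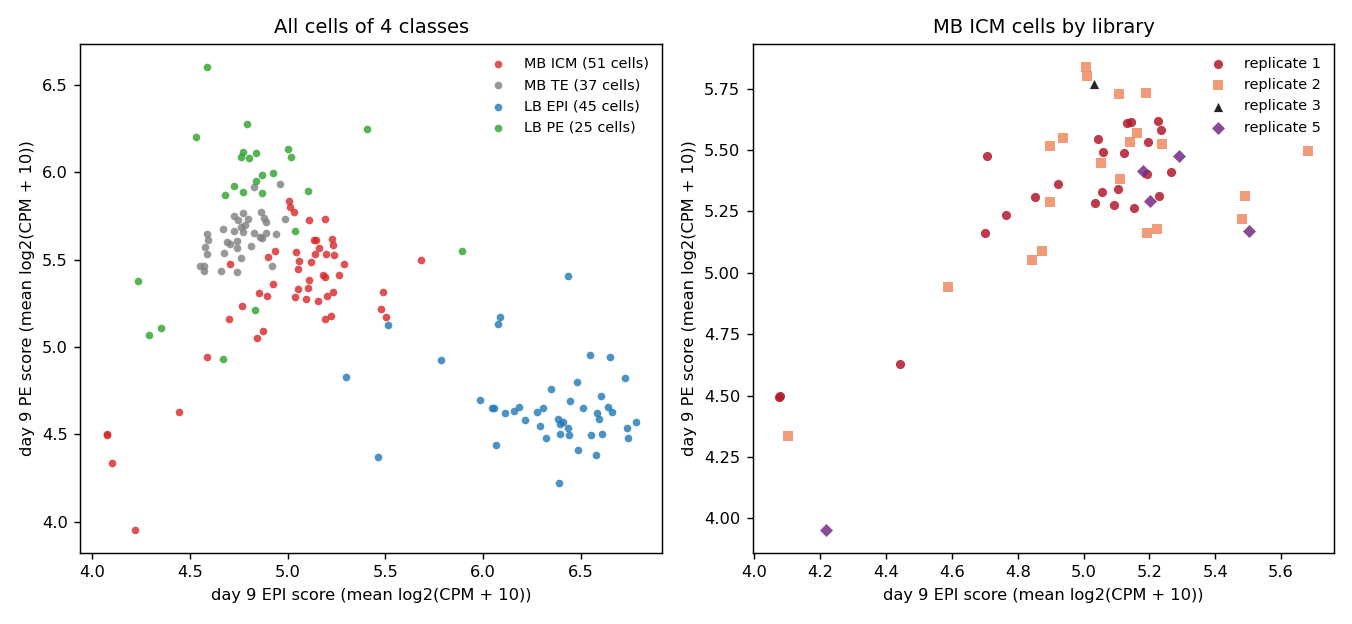
EPI score against PE score, in mean log2(CPM + 10), of each cell in MB ICM, MB TE, LB EPI and LB PE, and of the MB ICM cells by replicate. The EPI scores of MB ICM cells, from 4.08 to 5.68, overlap those of LB PE, from 4.23 to 5.89, and have a median of 5.10 beside 6.39 in LB EPI.

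Over MB ICM cells the rank correlation of the EPI score with the PE score was 0.647 in replicate 1 (24 cells) and 0.275 in replicate 2 (21 cells). Within the day 9 classes it was -0.236, 0.150 and -0.183 over the LB EPI cells of replicates 2, 3 and 5 and 0.002 and 0.150 over the LB PE cells of replicates 3 and 5. Both scores rose with depth, with rank correlations between 0.560 and 0.726. After a line on log10 depth was removed, the correlation was 0.444 in replicate 1 and -0.313 in replicate 2, and with thinned cells it was 0.263 and -0.209. MB TE cells, which form neither lineage, gave 0.736 and 0.888 in replicates 1 and 2 with depth left in. With the line on depth removed, MB TE cells gave 0.587 and 0.797. Over MB ICM cells the sign in replicate 1 was thus positive under each of these treatments of depth, and that in replicate 2 turned with them.

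Few genes followed the PE minus EPI score in both libraries. Of 5187 genes with a mean of at least 20 CPM in both, 22 had a rank correlation of 0.5 or more and 26 of -0.5 or less in replicate 1, and in replicate 2 the numbers were 78 and 30. No gene reached 0.5 in size with the same sign in both, and after depth was removed 5 did. Each gene was left out of the score it was compared with. On the EPI side BBX, an HMG-box factor, ranked first of the named day 9 genes, at -0.372 in replicate 1 and -0.648 in replicate 2. NANOG gave -0.250 and -0.670, and SOX2, which is in neither day 9 set, gave -0.389 and -0.355. PLD3, a member of the day 9 PE set, also lay on the EPI side, at -0.279 and -0.518. On the PE side GSTP1, a detoxifying enzyme, gave 0.477 and 0.622, S100A10 gave 0.558 and 0.405, and CLDN4, a tight junction protein, gave 0.603 and 0.395. Outside the day 9 sets, the tight junction protein CLDN3 (0.472 and 0.470) and the membrane-binding protein ANXA1 (0.426 and 0.517) ranked first among positive values. MAPK8 ranked first among the negative ones (-0.568 and -0.438). The median over the trophectoderm list was 0.203 and 0.124, and that over the hypoblast list 0.007 and 0.183. CLDN3 and CLDN4 were thus among the genes nearest the PE end in both libraries. That end is not of the hypoblast alone. The day 9 PE set holds 10 of the 30 genes of the trophectoderm list and 16 of the 34 of the hypoblast list. The PE score had a median of 5.65 in MB TE and 5.38 in MB ICM. CLDN6, another tight junction protein and a member of the day 9 PE set, gave 0.203 and -0.227. Of the hypoblast genes in that set, FN1 gave -0.283 and 0.183 and COL4A1 -0.216 and 0.286. PDGFRA gave 0.037 and 0.408, and GATA6 0.081 and 0.292.

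The most variable genes of the class were not the inner lineage factors. Squared coefficients of variation were divided by the running median of genes with a like mean, over 2851 genes with a mean of at least 50 CPM in both libraries, and ranked by the smaller ratio of replicates 1 and 2. NANOG ranked 51, SOX2 402, GATA6 543, PDGFRA 603 and POU5F1 2363. Of the trophectoderm genes, KRT18 ranked 27, KRT8 40 and GATA3 97. HES1, a Notch target and transcriptional repressor, ranked 10 and ran from 32.6 to 4544 CPM in replicate 1 (median 170) and from 0 to 1175 CPM in replicate 2 (median 57.9). GRP, which encodes gastrin-releasing peptide, ranked 14, with a highest cell of 2879 CPM in replicate 1 and 2538 CPM in replicate 2, around medians of 108 and 231 CPM. Both kept a high rank in the cells of at least 20000 reads, HES1 at 8 and GRP at 11.

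Several other variable genes rested on shallow cells, in 1 or both libraries, or on structural RNA. VIM, TPM2 and COL1A1, genes of the cytoskeleton and matrix of mesenchymal cells, ranked 6, 4 and 11. In cells of at least 20000 reads VIM ranked 125, its maximum dropped from 1979 to 562 CPM in replicate 1 and from 3229 to 780 CPM in replicate 2, and the other two no longer reached the mean of 50 CPM in both libraries. The COL1A1 maximum dropped from 923 to 234 CPM in replicate 1 but stayed at 2376 CPM in replicate 2. The summed level of 5 fibroblast markers had a median of 140 CPM over MB ICM cells, with a highest cell of 3974 CPM. Among the 47 cells of at least 20000 reads its highest value was 3676 CPM. RN7SL1, RN18S1 and MIR2887-1, which come from the signal recognition particle RNA and ribosomal RNA loci, ranked 3, 7 and 9. RN18S1 took up to 400437 CPM of 1 cell in replicate 2, beside a median of 16920 CPM, and thereby lowers the CPM of every other gene in that cell.

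Levels of TDGF1 and UPP1 in MB ICM differed between libraries, and so did those in MB TE. TDGF1 was found in 5 of 24 MB ICM cells of replicate 1, in 19 of 21 of replicate 2 and, after thinning, in 1 of 22 and 13 of 20. In MB TE it was found in 1 of 21, 12 of 12 and 3 of 3 cells of replicates 1, 2 and 3. Replicates 1, 2, 3 and 5 held 1, 11, 9 and 24 LB EPI cells, in which TDGF1 is high. UPP1, a pyrimidine-salvage enzyme that is also high in LB EPI, averaged 6.74, 60.8 and 155 CPM in the MB ICM cells of replicates 1, 2 and 5 and 3.29, 19.6 and 59.5 CPM in the MB TE cells of replicates 1, 2 and 3. ICOSLG, a ligand of T cell co-stimulation that is also high in LB EPI, did not have this order. It averaged 0.51, 25.9 and 11.8 CPM in MB ICM and 19.8, 15 and 28.2 CPM in MB TE. LRRC3 had the order of UPP1, at 1.52, 2.40 and 5.53 CPM in MB ICM and 1.58, 3.88 and 13.8 CPM in MB TE. GDF3 did so too, at 12.97, 36.8 and 73.6 CPM in MB ICM and 4.67, 12.4 and 16.04 CPM in MB TE. ERAS had this order in MB ICM, at 2.16, 15.7 and 23.5 CPM, but not in MB TE, at 6.57, 4.93 and 29.3 CPM. The part that pooling with LB EPI cells had in these levels was not tested. NANOG was also highest in replicate 5 among the MB ICM averages, at 203 CPM beside 129 and 130 CPM in replicates 1 and 2. SOX2 and PDGFRA were highest in replicate 1, which held 1 LB EPI cell.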

How the data were processed

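Polyadenylated RNA of single cells was reverse transcribed and amplified, and barcoded cells were pooled for library making, per the labels' protocols. Trim Galore, HISAT2, featureCounts and Seurat and the build ARS-UCD1.2 are named in the submitters' processing notes, without versions. The deposited table holds natural log values of 1 plus the value per 10000 of each cell, for 18825 rows and 286 cells, as the totals of the values show. After the log was undone, 100% of the values were whole multiples of 1 step per cell within 0.1 reads, which gave each cell's reads. The labels and files do not say whether molecular identifiers were counted, so the reads may include PCR copies. Classes and ages come from the cell table that the authors deposited. 2 rows shared a gene name and were summed.

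Averages of at least 3 cells per library and class, for all 7 wildtype classes, were fitted in 1 model of log2(CPM + 10) with limma 3.58.1 in R 4.3.3 (trend and robust), with the library as a random block (consensus correlation 0.18). Genes needed 10 CPM in as many averages as the smallest group has. The fit was tested on simulated data. Replicate numbers are library numbers, and a library pools its classes, so the block follows the labels. The members and the gene lists were chosen with earlier results of these data known.

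Genes named are 23 lineage genes, of which 1 is not reported here, and, by rule, up to 6 rises and 6 falls per comparison that did not overlap between groups, up to 4 members per list with the smallest adjusted p, up to 10 genes per sign that followed the score, and up to 12 variable genes. NODAL, and the genes read across pooled libraries, were picked after their values were seen. The lists cover epiblast, hypoblast, trophectoderm, FGF and ERK, Nodal, BMP and WNT, IL6, LIF and STAT3, PDGF, basement membrane, cell cycle, p53 and stress, and cumulus, blood, fibroblast, sperm and oocyte genes. Cells were not called as doublets or removed.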

Additional observations from a re-analysis of the deposited data

How the results depend on the processing

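Library number and small groups set most limits. Genes called between MB ICM and MB TE numbered 1264, with 818 for averages of at least 5 cells, 488 for averages of at least 1 cell, and 635 to 1260 when each replicate was left out, lowest without replicate 2. For LB EPI against MB ICM the count of 640 became 419 without a filter on low values, 187 with averages of at least 1 cell, 985 with means of log2 values and 1105 with limma-voom on sums of reads, and 315 to 604 with a replicate left out. For LB PE against MB ICM the count of 88 became 13 with a pseudocount of 1 CPM, 41 without a filter, 15 with averages of at least 1 cell, 53 with means of log2 values and 2 with limma-voom, and 2 to 269 with a replicate left out. Leaving out cells under 20000 reads, an alternative chosen after seeing the data, gave 137. For LB PE against LB EPI the count of 676 became 428 without a filter, 260 with averages of at least 1 cell and 401 with limma-voom, and 260 to 617 with a replicate left out. With no replicate block the 4 counts, in the same order, were 975, 461, 36 and 387. The rank correlation of the scores, 0.647 in replicate 1, was 0.263 in thinned cells and 0.327 with the hand-written lists, and lay between 0.503 and 0.702 over day 9 sets made without 1 replicate. In replicate 2 it was 0.275, with 0.518 at a pseudocount of 1 CPM, 0.0545 at 100 CPM, -0.209 in thinned cells, -0.313 with depth removed, and 0.155 to 0.255 without 1 replicate. The share of cells with a read of both NANOG and PDGFRA, 70.8% in replicate 1 and 85.7% in replicate 2, was 37.5% and 23.8% at 50 CPM and 20.8% and 4.76% at 100 CPM, and 40% in thinned cells of replicate 2. Genes following the score in both libraries numbered 0, and 1 with a pseudocount of 1 CPM, 5 with depth removed, 1 without a filter and 3 without the cells under 20000 reads. Of the single-gene values under these alternatives, 1891 kept their direction and call, 390 lost the call, 8 gained it, 13 uncalled values moved and none reversed. The cause of these changes was not tested, beyond the fewer samples that leaving out a replicate gives.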
